A study of Mus musculus with 16 samples.

Results

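The major urinary protein genes of the mouse (Mup genes) and their pseudogenes were followed one by one in liver RNA of mice given the glucagon receptor agonist G108. Members were chosen by name alone. They were the table rows whose Ensembl identifier carries the symbol Mup or Mup-ps followed by a number in GRCm38, which gave 49 of 55487 rows, 22 coding genes and 27 pseudogenes. Of these, 43 had a mean of at least 1 TPM (reads per exon length, scaled to the same total in every library) over the 16 libraries and entered the tests. The 6 others were Mup-ps22, Mup-ps23, Mup-ps24, Mup-ps26, Mup-ps28 and Mup-ps29, of which Mup-ps26, Mup-ps28 and Mup-ps29 were listed at 0 in every library.

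The 16 livers came from male C57BL6/J mice, 4 per group, with 1 library per mouse. All mice were obese, housed singly and fed a high fat diet of 60 kcal% for 8 weeks from the age of 10 weeks, and were then moved to high fat diets that held either standard protein (SP diet) or high protein (HP diet). On each diet they received vehicle or G108 at 2.5 nmol/kg by daily subcutaneous injection for 22 days, and all were fasted for 4 h before culling on day 25, as the sample records give it. Groups are named by treatment and then diet, such as vehicle SP or G108 HP. Whether G108 altered liver transcripts, and whether dietary protein changed its effect, were the questions of the design.

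Mup genes encode small secreted proteins of the lipocalin family, which fold into a barrel around a hydrophobic pocket. The hepatocyte makes them in bulk, above all in the male, under the pulsatile growth hormone pattern that acts through STAT5B, and the kidney passes them into the urine, where they carry and slowly release volatile pheromones. The genes arose by repeated duplication. A central block of near-identical copies alternates with pseudogenes, and more divergent peripheral genes lie at its ends, among them Mup20, which encodes darcin, a male pheromone that attracts females.

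In these livers 48 of the 49 members lay on chromosome 4 between 59956804 and 62150863 of GRCm38, a stretch of 2.19 Mb, and Mup-ps22 lay on chromosome 11. Coding members were split by protein sequence only, with identity taken over the shorter protein. The 16 members at least 95% identical to at least 5 others were called central (Mup1, Mup2, Mup7 to Mup19 and Mup22), and the other 6 peripheral (Mup3, Mup4, Mup5, Mup6, Mup20 and Mup21). Central proteins shared 94.4% to 100% of their residues with each other and peripheral proteins 65.2% to 82.2% with central ones. Mup3 and Mup21, side by side at one end, shared 92.3%. All central genes fell between 60066469 and 61782269. Mup4 (59956804-59960710) and Mup6 lay before them, and Mup5, Mup20 (62050234-62054158), Mup3 (62083476-62087342) and Mup21 (62147932-62150863) lay after them.

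These duplications decide how well a read can be placed. Coding bases 61 to 180 of Mup20 are shown with the matching bases of 5 other members, because they include the pairs that could and could not be told apart. The sequences come from the GENCODE transcripts of GRCm38, in the sense direction. Capitals mark bases that differ from Mup20 or that have no base of Mup20 opposite them (a gap column). Bases of Mup20 that a member lacks, also gap columns, are not marked.
Mup20: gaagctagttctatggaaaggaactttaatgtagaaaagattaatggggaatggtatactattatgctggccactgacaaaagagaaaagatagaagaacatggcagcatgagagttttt
Mup-ps19: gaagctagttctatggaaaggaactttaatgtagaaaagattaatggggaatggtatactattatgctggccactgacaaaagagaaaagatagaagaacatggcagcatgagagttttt
Mup22: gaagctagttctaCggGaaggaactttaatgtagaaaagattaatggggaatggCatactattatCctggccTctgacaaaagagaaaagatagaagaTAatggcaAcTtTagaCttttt
Mup7: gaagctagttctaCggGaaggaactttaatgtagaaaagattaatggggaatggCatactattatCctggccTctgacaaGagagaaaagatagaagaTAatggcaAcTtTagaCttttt
Mup3: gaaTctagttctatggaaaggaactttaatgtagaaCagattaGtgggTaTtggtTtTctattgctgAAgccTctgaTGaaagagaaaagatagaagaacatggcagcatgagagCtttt
Mup4: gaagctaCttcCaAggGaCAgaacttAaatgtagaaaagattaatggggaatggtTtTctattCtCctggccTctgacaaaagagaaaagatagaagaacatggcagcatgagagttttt
The Mup-ps19 transcript, 519 bases long, matched Mup20 at every aligned base, here and over its whole length. Gaps are not counted in that match, and the transcripts were not the same throughout, as the windows described next show. Mup22 differed from Mup20 at 11 of these 120 bases, and Mup1, Mup10 and Mup12 held the same letters as Mup22. Mup7 differed from Mup20 at 12. Mup4 differed at 12, and Mup3 at 11 and at 4 gap columns.

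Each member's transcripts were cut into windows of 100 bases, and a window found in no other annotated gene was called unique. Mup22 and Mup19 had 0% unique windows, and 92.4% of the windows of Mup22 were also in Mup10. Mup15 had 2.66%, and the other central members 12.9% to 44.3%. Mup3, Mup4, Mup5, Mup6 and Mup21 had 95.5% to 100%. Mup20 had 61.2% and shared 38.8% with Mup-ps19, whose own share of unique windows was 23.3%. Mup-ps3 and Mup-ps11 held the same windows throughout. How reads with several equal alignments were handled is not given in the sources used here, so the level of a central member is that of its row in the table and may include reads of its neighbours.

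**Figure D1:**
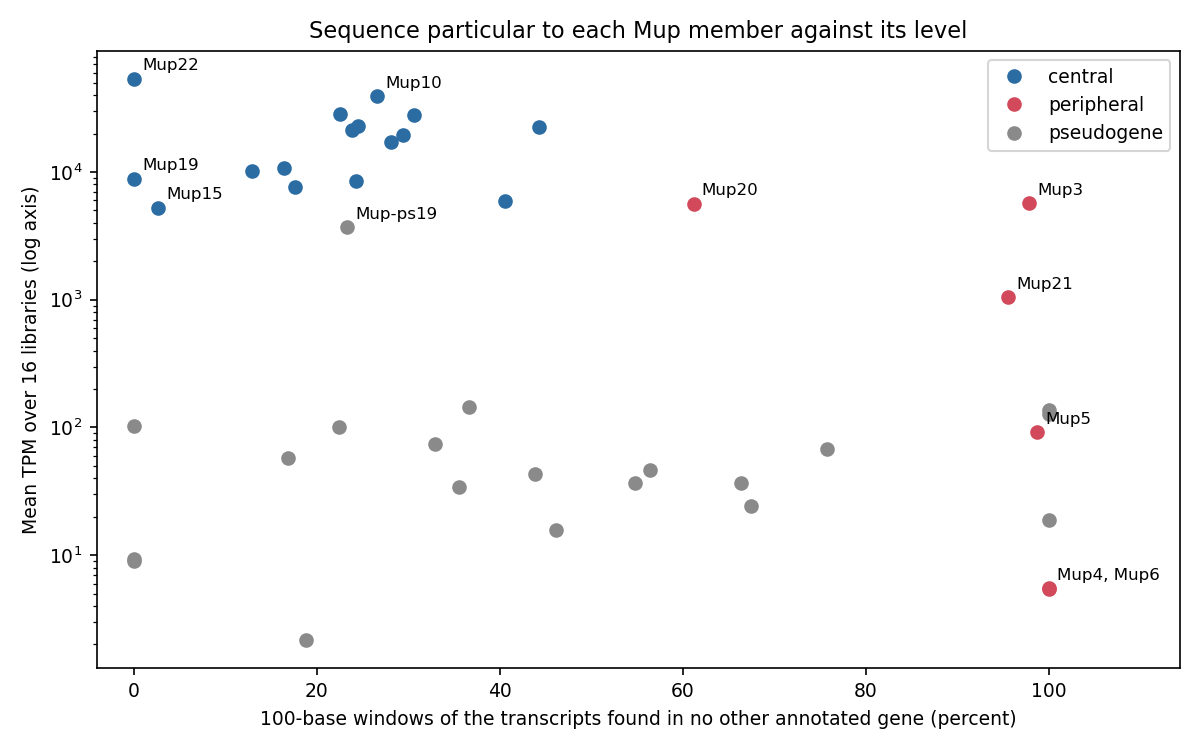
Each point is 1 tested Mup member with a transcript of at least 100 bases, placed by the percent of its 100-base windows found in no other annotated gene (horizontal axis) and by its mean TPM over 16 libraries (vertical log axis), with colours for central, peripheral and pseudogene members. Mup22, with 0% unique windows, had the highest mean, 53679 TPM, and Mup4 and Mup6, with 100%, had 5.51 and 5.40 TPM.

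The stretch before the start was compared where a promoter sequence was at hand. RefSeq (GRCm38.p6) gave one for 14 of the 22 coding members, and not for Mup1, Mup5, Mup8, Mup12, Mup13, Mup16, Mup20 and Mup22. In 11 of the 14 the 250 bases before the RefSeq start held TATATAA on either strand, against 3.04% of all 32851 such windows. That string was chosen after the sequences were read. The 70 bases that end in it are printed for 3 central and 3 peripheral members, with the string in capitals, each on the minus strand.
Mup10: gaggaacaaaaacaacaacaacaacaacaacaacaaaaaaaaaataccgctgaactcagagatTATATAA
Mup17: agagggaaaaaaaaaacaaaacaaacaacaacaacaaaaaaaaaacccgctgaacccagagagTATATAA
Mup18: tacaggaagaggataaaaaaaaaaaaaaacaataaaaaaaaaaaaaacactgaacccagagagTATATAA
Mup3: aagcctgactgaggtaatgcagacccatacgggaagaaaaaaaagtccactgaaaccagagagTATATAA
Mup21: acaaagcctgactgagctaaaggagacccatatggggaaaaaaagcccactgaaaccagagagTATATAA
Mup4: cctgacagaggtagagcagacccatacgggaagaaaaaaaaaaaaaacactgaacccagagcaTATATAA
They lie at chr4:60582179-60582248 (Mup10), chr4:61595851-61595920 (Mup17), chr4:61674116-61674185 (Mup18), chr4:62087322-62087391 (Mup3), chr4:62150843-62150912 (Mup21) and chr4:59960690-59960759 (Mup4), and their last 21 bases fall inside the gene as GENCODE annotates it, which starts earlier. In the members with the string, the tract before it was compared by a measure also chosen after the sequences were read. The longest run made only of A and C was 18 to 45 bases in 7 central members and 7 to 17 bases in 4 peripheral members. These ranges nearly met, with 18 bases in Mup18 and 17 in Mup4. A run of at least 40 on either strand was present in 0.155% of all windows, a length that the tract of Mup18 did not reach. Motifs were also searched on both strands in the same 250 bases. TATAAA, which overlaps TATATAA where an A follows, was found in Mup4 and Mup6 (2 of 14, against 12.4% of all windows) and AGAACA, a glucocorticoid receptor motif, in Mup3 and Mup21 (2 of 14, against 16.1%). TTCNNNGAA for STAT factors (7.02% of all windows), the cyclic AMP response element TGACGTCA (1.55%) and its shorter form TGACG (17.8%), which overlap each other, TTGCNNAA for C/EBP (9.56%) and the HNF1 motif (0.00913%) were in 0 of 14 within this window.

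The libraries held 27.8 to 45.03 M assigned reads, recovered from the steps of low values. G108 SP libraries were the least deep, at a median of 29.7 M against 40.4 M for vehicle SP, and the part of this gap in the results was not tested. Depth did not limit the abundant members: the Mup22 row had between 637122 and 2195446 reads and the Mup20 row between 79624 and 225853. The 7 hepatocyte markers found summed to 18936 to 62623 TPM, while 5 exocrine pancreas, 5 skeletal muscle and 5 adipocyte markers each stayed at or under 1.74 TPM in sum. The hepatocyte sum was 18936 to 41021 TPM in vehicle SP and 42236 to 62623 TPM in G108 SP, so it was higher where central Mup genes were lower. Of the 7, 6 were called higher on the TPM scale, as were 77.0% of all genes. After scaling by the typical gene 0 of 7 were, beside 1.33% of all genes. Blood cell markers (605 to 2106 TPM) and Kupffer cell markers (27.5 to 103 TPM) overlapped between the groups, and the part of cell makeup in the results was not tested. In bulk tissue, fewer cells of a type and less RNA per cell cannot be told apart.

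The rows of Mup members held a large part of the TPM of every library. How reads with several equal alignments were counted is not given. If such a read was counted in several rows, the sums below are too high. In vehicle SP mice the 49 members together held 49.7%, 42.7%, 47.9% and 42.6% of all TPM. In vehicle HP mice they held 38.5%, 35.7%, 40.4% and 44.9%. With G108 they held 22.9%, 19.7%, 18.3% and 23.0% on the SP diet and 29.6%, 26.4%, 18.2% and 23.5% on the HP diet. Vehicle and G108 mice did not overlap on either diet, and the 2 G108 groups overlapped. Since TPM are shares of a fixed total, a lower share of members goes with a higher summed share of all other genes. The median log2 difference of all 11839 tested genes was 0.60 between G108 and vehicle on SP and 0.09 on HP. With TPM rescaled over genes that are not members it was 0.19 on SP and -0.17 on HP. The origin of these shifts was not tested. Median-of-ratios scaling brings the median of all genes close to no difference, since it divides each library by its median ratio to the average library. Values on that scale are given below where they alter a call or, for the members described, a direction.

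**Figure D2:**
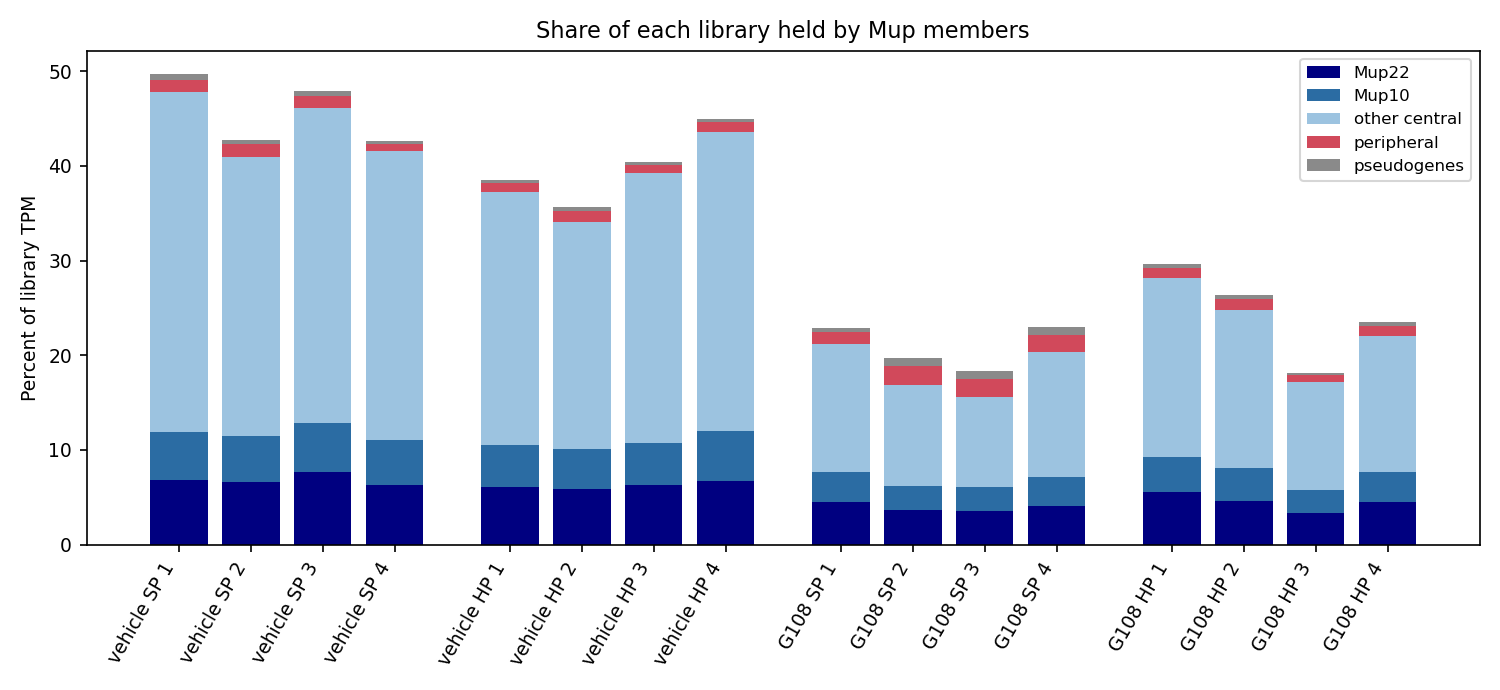
Stacked bars show, for each of the 16 libraries, the percent of library TPM held by Mup22, Mup10, the other central genes, the peripheral genes and the pseudogenes. The total is 35.7% to 49.7% in the 8 vehicle libraries and 18.2% to 29.6% in the 8 G108 libraries, and the peripheral part averages 1.75% in G108 SP against 1.19% in vehicle SP.

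With vehicle the abundance order was led by central genes. Mup22 was the gene with the most TPM of all 55487 rows in all vehicle HP libraries and ranked 1 or 2 in vehicle SP. Its mean was 68471 TPM ± 5735 (SD, n = 4) in vehicle SP, above Mup10 at 49822 ± 2200, Mup12 at 44038 ± 6525, Mup8 at 41392 ± 2676, Mup1 at 36230 ± 4171 and Mup7 at 32995 ± 6451. Mup22 and Mup10 did not overlap. Mup12, Mup8 and Mup1 overlapped their neighbours in this order over the 4 mice. Within each vehicle SP mouse, Mup12 and Mup8 both lay above Mup1, while the order of Mup12 and Mup8 differed between mice. Of the 10 genes with the most TPM, 9 were members in each vehicle SP library and 8 in each vehicle HP library. The lowest central level was that of Mup15, at 8590 ± 1772, still above Mup3 at 5760 ± 977 and Mup20 at 4827 ± 1652 in the mean. Below these stood Mup-ps19 (2804 ± 1288), a pseudogene with the level of a peripheral gene, and Mup21 (1168 ± 168). Among the tested pseudogenes, 20 of 21 had a mean under 200 TPM over all libraries, with 146 TPM the highest.

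The order differed with G108, most on the SP diet. Only 2 to 4 members remained among the first 10 genes in G108 SP libraries and 2 to 6 in G108 HP libraries. Mup22 and Mup10 kept ranks of 1 to 3 and 3 to 4 in G108 SP. Mup7 moved from ranks 5 to 8 in vehicle SP to ranks 22 to 39 in G108 SP, and Mup1 from 5 to 6 to 20 to 33. Mup20 moved the other way, from ranks 37 to 49 to ranks 19 to 37. Mup3 stayed between ranks 35 and 42 in both. On HP, Mup20 ranked 44 to 50 with vehicle and 45 to 52 with G108.

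**Figure D3:**
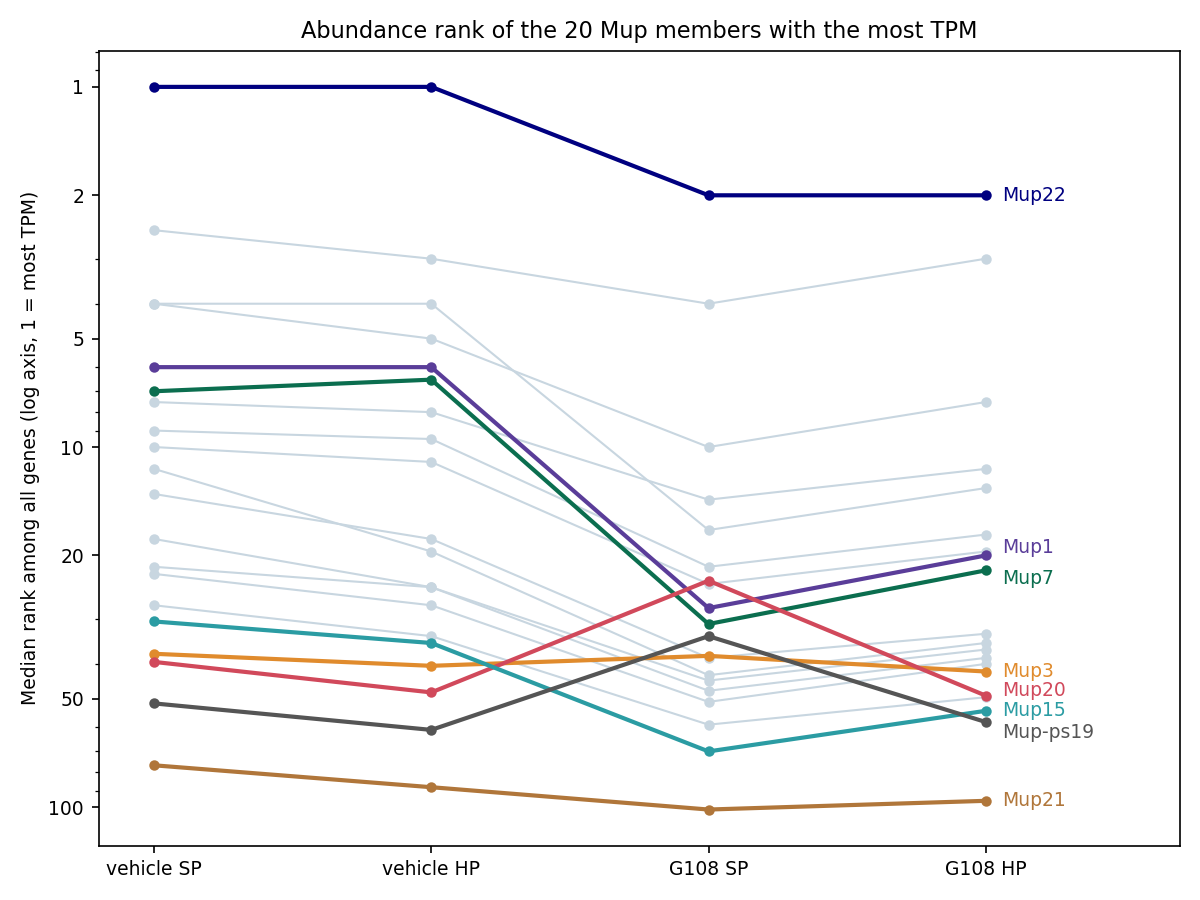
Lines join the median rank among all genes (log axis, 1 is the most TPM) in the 4 groups for the 20 Mup members with the highest mean TPM, with 8 of them named and coloured. In G108 SP the line of Mup20 crosses those of Mup1 and Mup7, which drop from the first 10 ranks, while Mup22 stays at a median of 1 or 2.

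All 16 central genes fell with G108 on the SP diet (limma adjusted p under 0.05), and in all 16 the 4 G108 mice lay below the 4 vehicle mice. Over all genes 0.608% were called lower and 0.355% were lower without overlap. Their differences, taken on log2(TPM + 1), ran from -2.11 to -0.80, with a median of -1.38, which is 1.74 to 4.32 times lower. After median-of-ratios scaling all 16 were called lower again, with a median of -2.16, where 1.39% of all genes were.

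The fall was not even across central genes. Mup7 had 42083, 27843, 33023 and 29033 TPM in vehicle SP and 8776, 7032, 6077 and 10598 TPM in G108 SP. The lowest vehicle value was thus more than the highest value with G108. The log2 difference was -2.04 (SE 0.21, limma adjusted p = 7.3e-05). Mup15 (11113, 7026, 8380 and 7841 TPM with vehicle against 2215, 1833, 1460 and 2488 TPM with G108) and Mup1 (41383, 31189, 35827 and 36519 TPM against 10686, 8568, 7283 and 11561 TPM) moved by similar amounts, -2.11 (SE 0.22) and -1.94 (SE 0.20).

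Mup22 and Mup10 were at the other end. Mup22 had 68610, 65979, 76343 and 62950 TPM in vehicle SP and 45316, 36446, 35673 and 40564 TPM in G108 SP, a log2 difference of -0.80 (SE 0.14, limma adjusted p = 0.00082). Mup10 had 50465, 48786, 52564 and 47474 TPM against 30907, 25873, 25588 and 30821 TPM, a difference of -0.82 (SE 0.13). These 2 rows share most of their windows, and Mup10 stood at 67.0 to 79.0 per 100 Mup22 TPM over all 16 libraries. Mup7 was 42.2 to 61.3 per 100 Mup22 TPM in vehicle SP and 17.0 to 26.1 in G108 SP, so the 2 ranges did not meet. On HP the same ratio was 41.8 to 53.1 with vehicle and 27.4 to 34.6 with G108, also apart. Between these ends lay the other 11 central genes, from -1.69 (Mup17) to -1.12 (Mup13).

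On the HP diet the central genes were again lower in every case, and fewer passed the test. The log2 differences ran from -1.14 (Mup15) to -0.49 (Mup22) with a median of -0.85. All 16 groups were apart, against 1.21% of all genes. Of the 16, 12 were called lower (0.296% of all genes were), and Mup2, Mup9, Mup10 and Mup22 had limma adjusted p between 0.061 and 0.12. After median-of-ratios scaling 8 were called lower, where 0.583% of all genes were, and 0 higher (0.642%). The 4 that lost the call were Mup8 (-0.90), Mup11 (-0.90), Mup12 (-1.12) and Mup14 (-0.83), with limma adjusted p between 0.061 and 0.088. Mup7 had 28660, 24342, 31058 and 35532 TPM in vehicle HP and 19188, 15044, 10300 and 12183 TPM in G108 HP. The difference was -1.10 (SE 0.21, limma adjusted p = 0.021). Mup22 had 60523, 58219, 62467 and 66861 TPM against 55464, 45728, 33236 and 44488 TPM, where the highest G108 mouse lay just under the lowest vehicle mouse. These calls rested on single mice: 0 of the 43 members were called without vehicle HP mouse 3 or without vehicle HP mouse 4, 1 without G108 HP mouse 4, 3 without G108 HP mouse 3 and 5 without G108 HP mouse 2, in fits that called 0% to 0.404% of all genes, while all 16 central differences stayed below 0 whichever mouse was left out.

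The other 11 central genes follow with the value of every library. Mup12 had 50833, 36305, 47773 and 41241 TPM in vehicle SP, 37559.8, 33789.8, 37936 and 37819 TPM in vehicle HP, 18215, 12962, 11469 and 13734 TPM in G108 SP and 28880.4, 19092, 13542 and 15451 TPM in G108 HP. Mup8 had 43061, 37685, 41211 and 43611 TPM in vehicle SP, 34978, 29859.6, 34899 and 38498 TPM in vehicle HP, 19066, 15106, 13119.8 and 18097 TPM in G108 SP and 23021, 23085, 15889.9 and 19163 TPM in G108 HP. Both lay lower in all G108 mice, with SP differences of -1.65 and -1.35. Mup2 had 35258, 30008, 30864 and 30073 TPM in vehicle SP, 27573, 23618, 28854 and 30219.6 TPM in vehicle HP, 16701, 13328, 12129 and 16093 TPM in G108 SP and 21009, 21056, 15139 and 17056 TPM in G108 HP. Mup11 had 31109, 25246, 28651 and 26683 TPM in vehicle SP, 23046, 21591, 24591 and 26599.9 TPM in vehicle HP, 12709.8, 11432, 9407 and 12989 TPM in G108 SP and 16169.7, 15577, 10871 and 13698 TPM in G108 HP. Mup9 had 23817, 23928, 26235 and 22130.3 TPM in vehicle SP, 18843, 17938, 21612 and 23912 TPM in vehicle HP, 12432, 9980.2, 9382 and 12407 TPM in G108 SP and 15322, 14559.8, 9589 and 13184 TPM in G108 HP. These 3 ranked just below, and their SP differences were -1.12, -1.27 and -1.13. Mup13 had 14978, 14739, 14226 and 13358 TPM in vehicle SP, 14511, 13179, 13454 and 15646 TPM in vehicle HP, 7748, 5888, 5588 and 7406 TPM in G108 SP and 9048, 9099, 6828 and 7630.4 TPM in G108 HP. Mup18 had 16054, 15549, 16898 and 12578 TPM in vehicle SP, 10790.0, 10788, 13762 and 16148 TPM in vehicle HP, 6662, 4936, 4498 and 6880.4 TPM in G108 SP and 8063, 7618, 4741 and 7338 TPM in G108 HP. Mup19 had 13732, 13964, 15668 and 11633 TPM in vehicle SP, 9372, 9215, 12304 and 14356 TPM in vehicle HP, 5501, 3960.0, 3469 and 5448 TPM in G108 SP and 6847, 6564, 3900.1 and 6124 TPM in G108 HP. In this middle band the SP differences were -1.12, -1.43 and -1.60. Mup14 had 12711, 11367, 12039.6 and 10487 TPM in vehicle SP, 10504, 9444, 10383 and 11917 TPM in vehicle HP, 6167, 4707, 4534 and 5650.1 TPM in G108 SP and 7326, 7219, 5083 and 6387 TPM in G108 HP. Mup16 had 11706, 11062, 12574 and 9914 TPM in vehicle SP, 8914, 8202, 10318 and 11878 TPM in vehicle HP, 4982, 3820.0, 3394 and 4989.8 TPM in G108 SP and 6259, 5884, 3678 and 5439 TPM in G108 HP. Mup17 had 10571, 8267, 9189 and 9718 TPM in vehicle SP, 7293, 6243, 8234 and 8822 TPM in vehicle HP, 3362, 2665, 2431 and 3289 TPM in G108 SP and 4550.0, 4045, 2827 and 3465 TPM in G108 HP. They were among the scarcer central genes, with SP differences of -1.15, -1.41 and -1.69. On HP, Mup1 had 29322, 25034, 29736 and 35695 TPM with vehicle and 18712, 14597, 9559 and 12717 TPM with G108. Mup15 had 6381, 5910.4, 7432 and 8992 TPM against 4419.5, 3447, 2334 and 2967 TPM. In both genes the groups were apart. Mup10, which was not called on HP, had 44277, 42943, 45007 and 52825 TPM against 37142, 34622, 24388 and 32564 TPM.

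**Figure D4:**
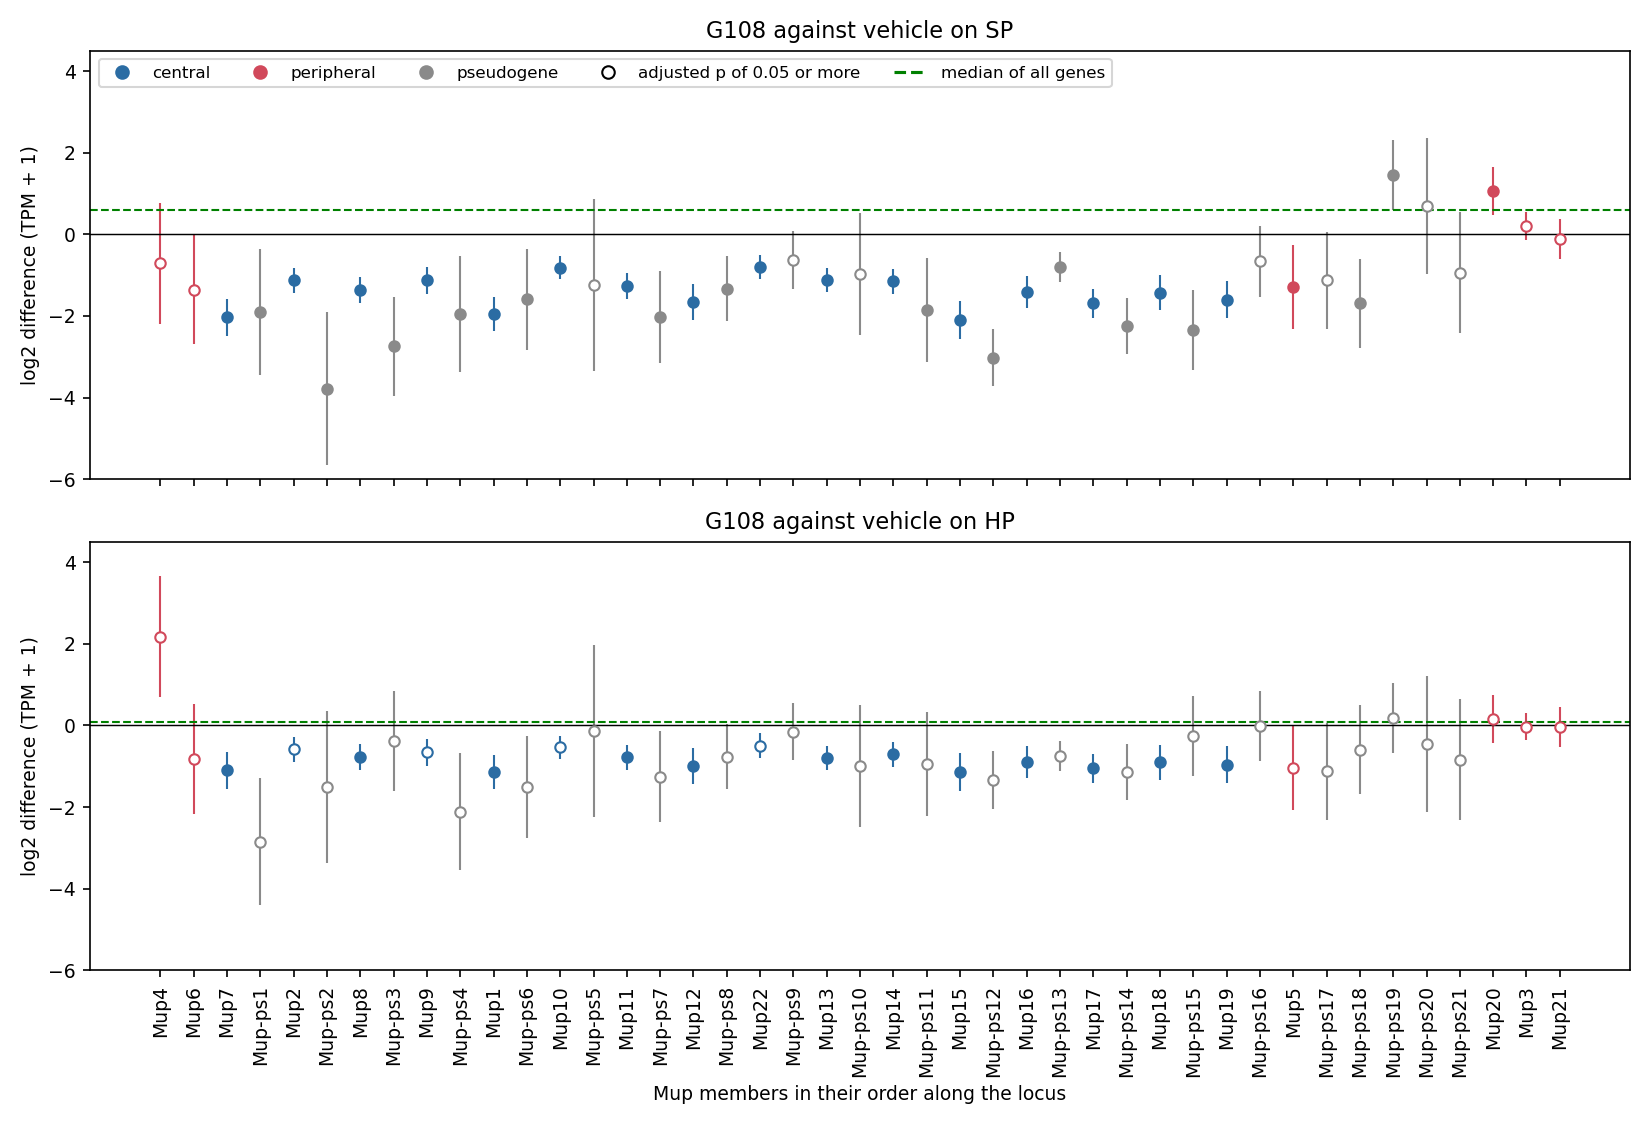
Points are log2 differences on log2(TPM + 1) between G108 and vehicle, on SP (upper panel) and HP (lower panel), for 43 tested Mup members in their order along the locus, with 95% limma confidence intervals. Filled points passed an adjusted p of 0.05, and the dashed line is the median of all genes, 0.60 and 0.09. All central points lie below 0 on both diets, and Mup20 and Mup-ps19 are the filled points above 0, on SP.

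Peripheral genes did not move together on the TPM scale. On SP, 1 of the 6 was called higher (Mup20), 1 lower (Mup5) and 4 were not called, with a median of -0.41. On HP, 0 of 6 were called (0.819% of all genes were called higher), with 1 at an unadjusted p under 0.05 (Mup4) and a median of -0.03. Across all genes 77.0% were called higher on SP, and 56.0% were higher without overlap, so either was common on the TPM scale. After median-of-ratios scaling 1.33% of all genes and 0 of 43 members were called higher. On that scale 5 of the 6 peripheral genes lay below 0 on SP, with a median of -0.86. Of the 6, 2 were then called lower (Mup3 and Mup21), as were 1.39% of all genes.

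Mup20, the darcin gene, had 5940, 6039, 4842 and 2486 TPM in vehicle SP and 6208, 11653, 11116 and 10151 TPM in G108 SP. Every G108 value was above every vehicle value, though G108 SP mouse 1 stood close to the vehicle mice. The log2 difference was 1.06 (SE 0.28, limma adjusted p = 0.0042), which is 0.46 above the median of all genes. After median-of-ratios scaling the difference was 0.28 (SE 0.23, limma adjusted p = 0.51), and with TPM rescaled over genes that are not members it was 0.52 (limma adjusted p = 0.35), so the call was lost under both scalings. On recovered reads with voom it was kept, at 0.87. On HP Mup20 had 3529, 4940, 3174 and 3532 TPM with vehicle and 4366, 5021, 3097 and 4586 TPM with G108. These groups overlapped, and the difference was 0.17 (SE 0.28).

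The share of Mup20 among members was highest in G108 SP. It made up 0.583% to 1.41% of all member TPM in vehicle SP, 0.785% to 1.38% in vehicle HP and 1.47% to 1.95% in G108 HP, and 2.71% to 6.06% in G108 SP. This rise was not particular to Mup20. From vehicle SP to G108 SP the share of Mup3 rose from at most 1.55% to at least 2.48%. That of Mup21 rose from at most 0.323% to at least 0.411%, and that of central Mup22 from at most 15.9% to at least 17.6%. The share of Mup7 fell, from at least 6.51% to at most 4.61%. Against Mup3, a peripheral gene whose windows are nearly all unique, Mup20 was 55.6 to 107 per 100 Mup3 TPM in vehicle SP and 109 to 173 in G108 SP. The 2 ranges of this ratio nearly met. On HP that ratio was 64.0 to 85.7 with vehicle and 78.5 to 89.4 with G108. Ratios within a library do not depend on how libraries are scaled.

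Mup-ps19 is listed as an unprocessed pseudogene between Mup5 and Mup20 (chromosome 4, 61957149-61959911) and followed Mup20 closely. It had 3854, 3210, 3227 and 924 TPM in vehicle SP and 3872, 8425, 8219 and 7770 TPM in G108 SP. The groups did not overlap by a narrow margin, and the lowest G108 value was again that of mouse 1. The log2 difference was 1.45 (SE 0.40, limma adjusted p = 0.0055), and 0.68 (adjusted p = 0.31) after median-of-ratios scaling. It held 37.2 to 66.7 per 100 Mup20 TPM in vehicle SP, 50.2 to 72.0 in vehicle HP, 62.4 to 76.5 in G108 SP and 52.7 to 71.0 in G108 HP. Its transcript has no differing base within the aligned Mup20 sequence, with gaps not counted, and 76.7% of its windows were also in Mup20. Reads of one row may thus belong to the other.

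Mup3 had 5543, 6609, 6418 and 4471 TPM in vehicle SP and 5675, 6729, 6747 and 7243 TPM in G108 SP. The groups overlapped and the log2 difference was 0.21 (SE 0.16, limma adjusted p = 0.24). Set against the typical gene its direction turned: after median-of-ratios scaling it was -0.57 (SE 0.12, limma adjusted p = 0.020), and with TPM rescaled over genes that are not members -0.34. Mup21 had 1139, 1382, 1174 and 974 TPM with vehicle and 1035, 1111, 1210 and 944 TPM with G108, a difference of -0.11 (SE 0.23, limma adjusted p = 0.65), and -0.89 (SE 0.19, limma adjusted p = 0.021) after median-of-ratios scaling. On HP the differences of both were between -0.04 and -0.02.

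**Figure D5:**
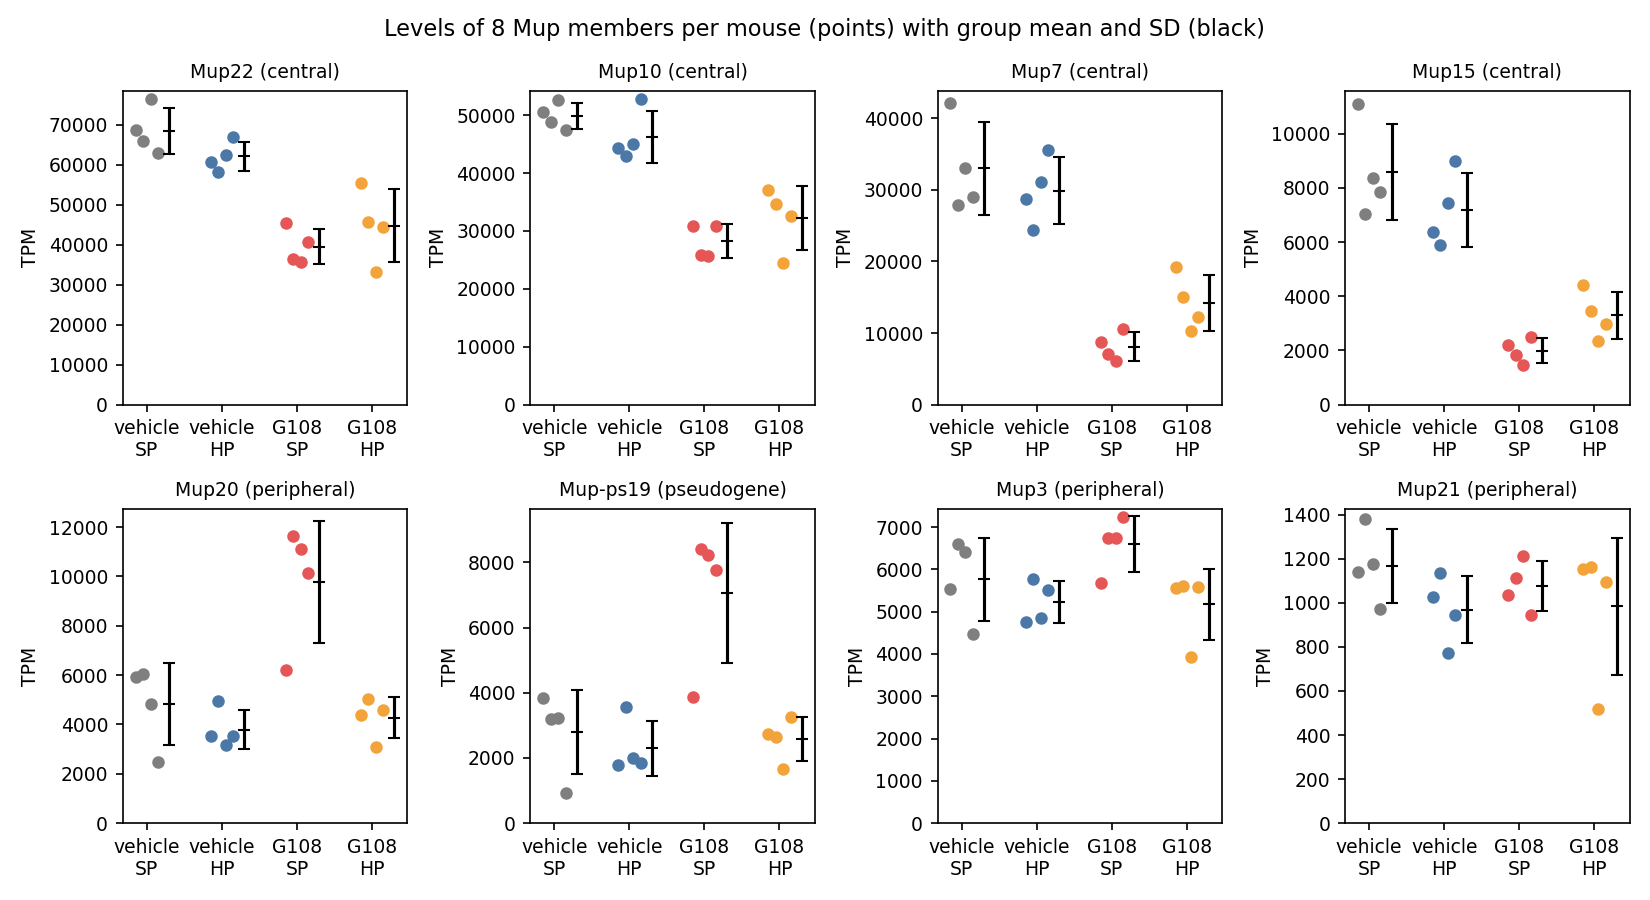
Each panel shows the TPM of 1 Mup member (vertical axis, from 0) in the 4 mice of each group, with the group mean and SD in black beside the points. Mup22, Mup10, Mup7 and Mup15 are lower with G108 on both diets, Mup20 and Mup-ps19 are highest in G108 SP with mouse 1 below the other 3, and Mup3 and Mup21 overlap between vehicle and G108 on both diets.

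The other peripheral genes were scarce. Mup5 had 216, 63.8, 109 and 205 TPM in vehicle SP and 29.9, 155, 34.4 and 51.3 TPM in G108 SP. These overlapped, and the log2 difference was -1.29 (SE 0.49, limma adjusted p = 0.025), no longer called after median-of-ratios scaling (adjusted p = 0.064) or without vehicle SP mouse 1 or 4 or G108 SP mouse 1 or 3, where the adjusted p reached 0.084. Mup4 was close to 0 in G108 SP. It had 0.0499, 0, 0 and 0 TPM in G108 SP, which is 1 read in all, and 10.5, 3.64, 56.3 and 4.49 TPM in G108 HP. With vehicle it had 2.36, 0.0424, 1.10 and 0.0275 TPM on SP and 0.327, 2.13, 0.201 and 7.05 TPM on HP. Its difference between HP and SP with G108 was 3.49 on log2(TPM + 1) (SE 0.70, limma adjusted p = 0.072), and that between G108 and vehicle on HP was 2.18 (adjusted p = 0.18). Mup6 was at 0.820 to 35.7 TPM in vehicle SP and 1.31 to 2.76 TPM in G108 SP (limma adjusted p = 0.061). Its highest value came from vehicle SP mouse 1.

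Of the 21 pseudogenes tested, 13 were called lower on SP, 1 was called higher (Mup-ps19) and 7 were not called, with a median log2 difference of -1.59. Over all genes 0.608% were called lower and 77.0% higher. The groups were apart below vehicle in 6, against 0.355% of all genes. Mup-ps12 had 53.5, 96.1, 60.3 and 117 TPM in vehicle SP and 14.2, 9.93, 4.39 and 8.66 TPM in G108 SP, a difference of -3.03 (SE 0.33, limma adjusted p = 7.3e-05). It lies between Mup15 and Mup16, and 56.4% of its windows were unique. Mup-ps2 had the lowest difference, -3.78 (SE 0.88), with 140.3, 58.8, 226 and 144 TPM in vehicle SP and 52.9, 5.12, 1.18 and 9.86 TPM in G108 SP. Mup-ps14 had 44.2, 80.9, 66.8 and 106 TPM with vehicle and 25.5, 16.1, 7.16 and 13.2 TPM with G108, a difference of -2.25. On HP 0 of 21 were called (1.11% of all genes were). An unadjusted p under 0.05 was reached by 7, all lower, and by 11.9% of all genes in either direction. After median-of-ratios scaling 10 were called lower on SP and 0 higher, where 1.39% and 1.33% of all genes were. Those no longer called lower were Mup-ps1 (-2.62), Mup-ps4 (-2.70) and Mup-ps6 (-2.35), with limma adjusted p of 0.088, 0.051 and 0.079. Mup-ps6 overlaps exons of the gene model Gm13773 and Mup-ps16 those of Gm13775, so their reads are uncertain.

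The other pseudogenes called lower on SP are given in their order by difference. Mup-ps3 had 12.3, 12.5, 5.12 and 72.9 TPM in vehicle SP, 1.66, 4.77, 7.19 and 10.1 TPM in vehicle HP, 0.844, 3.04, 1.15 and 1.53 TPM in G108 SP and 2.86, 4.34, 4.27 and 3.50 TPM in G108 HP. Mup-ps15 had 54.2, 33.6, 28.8 and 21.6 TPM in vehicle SP, 11.9, 6.50, 13.9 and 13.1 TPM in vehicle HP, 3.41, 3.97, 18.6 and 3.40 TPM in G108 SP and 11.5, 8.77, 3.94 and 15.5 TPM in G108 HP. Mup-ps7 had 247, 58.8, 103 and 186 TPM in vehicle SP, 47.7, 59.8, 105 and 84.8 TPM in vehicle HP, 81.4, 20.2, 28.4 and 19.3 TPM in G108 SP and 27.0, 20.1, 74.0 and 17.9 TPM in G108 HP. The SP differences were -2.74, -2.35 and -2.03. Mup-ps4 had 132, 22.7, 180.2 and 46.2 TPM in vehicle SP, 41.1, 16.6, 16.5 and 17.2 TPM in vehicle HP, 7.09, 30.8, 51.8 and 7.58 TPM in G108 SP and 1.97, 6.51, 2.67 and 7.25 TPM in G108 HP. Mup-ps1 had 64.0, 31.8, 128 and 19.3 TPM in vehicle SP, 38.6, 18.8, 122 and 31.9 TPM in vehicle HP, 3.89, 49.5, 9.57 and 10.0 TPM in G108 SP and 3.46, 13.9, 4.47 and 2.26 TPM in G108 HP. Mup-ps11 had 14.9, 8.53, 14.1 and 23.5 TPM in vehicle SP, 14.3, 6.65, 15.3 and 5.86 TPM in vehicle HP, 4.73, 2.41, 0.354 and 11.3 TPM in G108 SP and 13.1, 2.59, 1.63 and 6.17 TPM in G108 HP. Here the SP differences were -1.96, -1.90 and -1.85, and Mup-ps11 shares all its windows with Mup-ps3. Mup-ps18 had 244, 103, 205 and 322 TPM in vehicle SP, 120.1, 96.8, 94.2 and 181 TPM in vehicle HP, 36.5, 218, 27.4 and 65.6 TPM in G108 SP and 78.4, 127, 52.5 and 72.1 TPM in G108 HP. Mup-ps6 had 109.5, 64.3, 205 and 310.1 TPM in vehicle SP, 83.3, 106, 198 and 101 TPM in vehicle HP, 111, 99.9, 15.8 and 28.5 TPM in G108 SP and 77.3, 31.8, 29.1 and 35.5 TPM in G108 HP. Their SP differences were -1.69 and -1.59. Mup-ps8 had 234, 103, 112 and 122 TPM in vehicle SP, 123, 133, 147 and 111 TPM in vehicle HP, 125, 50.2, 29.9 and 41.1 TPM in G108 SP and 66.0, 99.2, 45.4 and 103 TPM in G108 HP. Mup-ps13 had 83.3, 89.5, 95.1 and 93.6 TPM in vehicle SP, 76.4, 68.4, 79.1 and 94.5 TPM in vehicle HP, 60.1, 50.2, 44.0 and 51.7 TPM in G108 SP and 57.0, 59.7, 34.5 and 40.1 TPM in G108 HP. With -1.33 and -0.81, these 2 had the smallest differences among the pseudogenes called lower. The 7 pseudogenes not called on SP were Mup-ps5, Mup-ps9, Mup-ps10, Mup-ps16, Mup-ps17, Mup-ps20 and Mup-ps21, with differences from -1.25 (Mup-ps5) to 0.69 (Mup-ps20), which was at -0.04 after median-of-ratios scaling.

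Diet alone moved no member past the threshold. For HP against SP with vehicle, limma called 0 of 43 members and 0% of all genes. An unadjusted p under 0.05 was reached by 4 members, all pseudogenes and all lower on HP. That is 9.30% of members beside 3.16% of all genes in either direction. After median-of-ratios scaling it was reached by 7 members, all lower, which is 16.3% beside 3.94%. On the TPM scale all 16 central genes had differences between -0.31 and -0.01. For HP against SP with G108, limma called 0 of 43 members (0% of all genes). An unadjusted p under 0.05 was reached by 13 members, 8 of them higher on HP and 5 lower. That is 30.2% of members beside 45.0% of all genes, both in either direction. After median-of-ratios scaling 24 members reached an unadjusted p under 0.05, 21 higher and 3 lower, and 0 were called. That is 55.8% of members beside 5.40% of all genes, both in either direction. All 16 central genes were above 0, from 0.16 to 0.80, where the median of all genes was -0.35. Mup7 was 0.80 higher on HP (SE 0.21, limma adjusted p = 0.072) with overlapping groups. The 4 G108 HP mice, at 3097 to 5021 TPM of Mup20, lay below the 4 G108 SP mice, at 6208 to 11653 TPM, and the difference was -1.18 (SE 0.28, limma adjusted p = 0.072). Mup3 and Mup-ps19 were also lower on HP without overlap, as were 20.5% of all genes, and Mup4 and Mup-ps12 were higher without overlap, as were 0.169%. After median-of-ratios scaling the direction turned for Mup3 (from -0.36 to 0.09), Mup5 (from -0.17 to 0.26), Mup21 (from -0.19 to 0.26), Mup-ps6 (from -0.25 to 0.18), Mup-ps7 (from -0.08 to 0.35) and Mup-ps13 (from -0.13 to 0.31). With array quality weights 26 of 43 members were called, 20 higher and 6 lower, which is 60.5% beside 71.8% of all genes in either direction. Of all 11839 genes, 87 were called higher and 8415 lower in that fit.

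The interaction asks whether the G108 effect differed between diets. No member passed an adjusted p of 0.05, nor did any gene (0%). At an unadjusted p under 0.05 limma counted 17 members, 15 of them above 0 and 2 below, where 0.304% of all genes were above 0 at that level and 47.7% below. After median-of-ratios scaling it counted 24, all above 0, where 3.76% of all genes were above and 3.46% below, and again 0 were called. All 16 central genes had an interaction above 0, between 0.28 (Mup10) and 0.97 (Mup15), with limma adjusted p from 0.080 upward. Mup20 had -0.89 (SE 0.39, limma adjusted p = 0.091) and -0.24 (SE 0.33, limma adjusted p = 0.73) after median-of-ratios scaling. The larger central differences on SP than on HP thus did not pass the test of their difference. Members of any class passed when 1 mouse was left out, 8 without vehicle SP mouse 2 (18.6% of members, beside 29.2% of all genes), 10 without G108 HP mouse 4 (23.3% beside 44.0%) and 14 without G108 SP mouse 1 (32.6% beside 33.7%). These shares pool both directions. In that order, 8, 10 and 12 members were called above 0, among 10, 25 and 18 of all genes. Called below 0 were 0, 0 and 2 members, among 3451, 5163 and 3954 of all genes.

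The split between central and peripheral members shifted with G108 on the SP diet. Central genes held 96.4% ± 0.73 of member TPM in vehicle SP and 96.5% ± 0.78 in vehicle HP (SD, n = 4). They held 87.7% ± 3.43 in G108 SP and 94.2% ± 0.73 in G108 HP, and the values of both G108 groups lay below all vehicle values. Peripheral genes held 2.60% ± 0.57 (SD, n = 4) in vehicle SP, 2.56% ± 0.53 in vehicle HP, 8.50% ± 2.17 in G108 SP and 4.32% ± 0.45 in G108 HP. As a share of the whole library, peripheral TPM were 0.814% to 1.41% in vehicle SP and 1.30% to 1.96% in G108 SP, which overlapped. Leaving out the 6 members with under 10% unique windows and Mup-ps5, which is too short for a window, the central share was 95.5% ± 0.93 in vehicle SP and 84.3% ± 4.3 in G108 SP.

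Genes that act on or beside the Mup genes were counted as lists. Of the growth hormone axis and Mup regulators, 20 of 21 were tested, and on SP 14 were called higher and 0 lower, with a median of 0.59 beside 0.60 for all genes. After median-of-ratios scaling 1 was called higher, Ppargc1a, a coactivator of fasting metabolism (0.89, limma adjusted p = 0.0027), and 0 lower. Ghr, the growth hormone receptor, was then at -0.05 (limma adjusted p = 0.80), Stat5b, its main effector for male liver genes, at -0.16 (limma adjusted p = 0.36) and Zhx2, a repressor of several liver genes, at 0.39 (adjusted p = 0.29). On HP 1 of 20 was called, again Ppargc1a (0.73, limma adjusted p = 0.034), where 0.819% of all genes were called higher on the TPM scale.

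Other male-biased liver genes went in both directions. Of 16 tested, 7 were called higher and 1 lower on SP, with a median of 0.49, and 1 higher and 2 lower after median-of-ratios scaling, with a median of -0.26. Selenbp2, a selenium-binding protein, fell on both diets (-1.41, limma adjusted p = 0.0015 on SP, and -1.84, adjusted p = 0.013 on HP). Cyp4a12a, a fatty acid hydroxylase, was lower after scaling (-1.26, limma adjusted p = 0.015), and Elovl3, a fatty acid elongase, was higher (1.25, adjusted p = 0.045).

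Among other lipocalins, 8 of 15 were tested, 4 were called higher and 2 lower on SP, with a median of 0.16. Orm3, an acute-phase lipocalin, fell by 1.59 on the log2 scale (limma adjusted p = 0.0014) and Ptgds, a prostaglandin synthase, by 0.62 (adjusted p = 0.046, and 0.11 after median-of-ratios scaling). After that scaling 0 were higher and 3 lower, namely Orm1 (-0.92), Orm2 (-0.93) and Orm3 (-2.06). Apom, which carries lysolipids, had 1.53 on the TPM scale and 0.77 (limma adjusted p = 0.28) after scaling. Of 19 other abundant secreted proteins tested, 15 were called higher and 0 lower on SP, with a median of 0.80, and 0 in either direction after scaling, with a median of 0.02. On HP 0 of the 8 lipocalins and 0 of the 19 secreted proteins were called.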

How the data were processed

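Liver RNA of 16 mice was sequenced, 4 per group, 1 library per mouse. The authors deposited 1 table of TPM values for 55487 Ensembl genes; per the submitters' processing notes FastQC 0.11.8, HISAT2 2.0.5, featureCounts and DESeq2 1.36.0 were used with GRCm38. How reads with several alignments were counted is not given in the sources used here. Since TPM are not counts, limma 3.58.1 in R 4.3.3 was fitted to log2(TPM + 1) with an intensity trend for the 11839 genes with a mean of at least 1 TPM, with 1 mean per group, all 16 libraries and Benjamini-Hochberg adjustment over all genes. A call is an adjusted p under 0.05. The code was tested on simulated data. Relative depth was recovered from low values, of which 98.7% of 139252 came out whole within 0.02 of a read.

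Members are all genes matching Mup or Mup-ps and a number; those with a mean of at least 1 TPM are named, with every library for members past the threshold. Protein identity was taken over the shorter protein. The members and lists were chosen with earlier results of these data known. TATATAA, the A and C run and the coding window were chosen after the sequences were read. Alternatives were a pseudocount of 0.1, no filter or a mean of at least 5 TPM, median-of-ratios scaling, TPM rescaled without members, 2-group fits, mouse number as a block, array quality weights, voom on recovered reads and leaving out each mouse. The sample records give 10 weeks of age and culling on day 25, and the methods text differs in these times. Python 3.11.15, pandas 2.3.3, Biopython 1.88 and matplotlib 3.10.9 were used.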

Additional observations from a re-analysis of the deposited data

Results flagged for a closer look

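Single mice that stood apart from the other 3 of their group are listed, by the gap to the nearest mouse over the range of the group. They were 24 of 172 groups of 4. The rule flags about 5% of groups, or 1 in 20, only if values are independent and normally distributed. That was not tested for these TPM values, so the count is not read as an excess. Of the 24, 16 were in pseudogenes, 6 in peripheral and 2 in central genes, and 20 lay high and 4 low. Mup2 had 35258 TPM in vehicle SP mouse 1, above the others at 30008 to 30864 TPM. Mup3 had 3916 TPM in G108 HP mouse 3, below the others at 5561 to 5614 TPM. Mup4 had 0.0499 TPM in G108 SP mouse 1, above the others at 0 and 56.3 TPM in G108 HP mouse 3, above the others at 3.64 to 10.5 TPM. Mup6 had 35.7 TPM in vehicle SP mouse 1, above the others at 0.820 to 6.53 TPM and 2.76 TPM in G108 SP mouse 1, above the others at 1.31 to 1.40 TPM. Mup12 had 33789.8 TPM in vehicle HP mouse 2, below the others at 37559.8 to 37936 TPM. Mup21 had 519.6 TPM in G108 HP mouse 3, below the others at 1097 to 1164 TPM. Mup-ps1 had 49.5 TPM in G108 SP mouse 2, above the others at 3.89 to 10.0 TPM. Mup-ps2 had 52.9 TPM in G108 SP mouse 1, above the others at 1.18 to 9.86 TPM and 34.3 TPM in G108 HP mouse 1, above the others at 7.90 to 9.87 TPM. Mup-ps3 had 72.9 TPM in vehicle SP mouse 4, above the others at 5.12 to 12.5 TPM. Mup-ps4 had 41.1 TPM in vehicle HP mouse 1, above the others at 16.5 to 17.2 TPM. Mup-ps5 had 1234 TPM in G108 HP mouse 2, above the others at 10.0 to 45.9 TPM. Mup-ps6 had 77.3 TPM in G108 HP mouse 1, above the others at 29.1 to 35.5 TPM. Mup-ps7 had 81.4 TPM in G108 SP mouse 1, above the others at 19.3 to 28.4 TPM and 74.0 TPM in G108 HP mouse 3, above the others at 17.9 to 27.0 TPM. Mup-ps8 had 234 TPM in vehicle SP mouse 1, above the others at 103 to 122 TPM. Mup-ps15 had 18.6 TPM in G108 SP mouse 3, above the others at 3.40 to 3.97 TPM. Mup-ps16 had 211 TPM in G108 SP mouse 1, above the others at 62.2 to 80.1 TPM and 284 TPM in G108 HP mouse 2, above the others at 110.0 to 127 TPM. Mup-ps19 had 3559.5 TPM in vehicle HP mouse 2, above the others at 1771 to 2009 TPM and 3872 TPM in G108 SP mouse 1, below the others at 7769.7 to 8425 TPM. Mup-ps21 had 765 TPM in vehicle SP mouse 1, above the others at 111 to 155 TPM. Mup3 and Mup21 were both lowest in G108 HP mouse 3, the mouse with the highest Mup4.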

How the results depend on the processing

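The count of members called on SP was 32, which is 74.4% of members beside 77.6% of all genes. Of the 32, 30 were lower, as were 0.608% of all genes, and 2 higher, as were 77.0%. The count stayed between 29 and 33 when any 1 mouse was left out, in fits that called 66.2% to 79.0% of all genes. The count on HP, 12, ranged from 0 to 15. It was 0 without vehicle HP mouse 3 or 4, 1 without G108 HP mouse 4, 3 without G108 HP mouse 3 and 5 without G108 HP mouse 2. It was 1 with no filter on low values, 4 with only the 2 groups compared and 26 with array quality weights, beside 0.115%, 0.710% and 18.0% of all genes (1.11% in the fit reported). For HP against SP with G108 the count was 0. Array weights gave 26, beside 71.8% of all genes, and leaving out a mouse gave 0 to 11 (6 without vehicle SP mouse 4, 11 without G108 SP mouse 1, 7 without G108 HP mouse 4, beside 14.5%, 25.5% and 42.8% of all genes). Of the 26, 20 were higher and 6 lower, where 87 of all genes were called higher and 8415 lower. With those mice left out, in that order, 4, 7 and 4 members were higher, among 12, 22 and 31 of all genes. Lower were 2, 4 and 3 members, among 1716, 2984 and 5019 of all genes. For the interaction the count was 0. Array weights gave 22, beside 61.4% of all genes, and leaving out a mouse gave 0 to 14 (8 without vehicle SP mouse 2, 14 without G108 SP mouse 1, 10 without G108 HP mouse 4, beside 29.2%, 33.7% and 44.0% of all genes). Of the 22, 20 were above 0 and 2 below, where 84 of all genes were called above 0 and 7183 below. With those mice left out, in that order, 8, 12 and 10 members were above 0, among 10, 18 and 25 of all genes. Below 0 were 0, 2 and 0 members, among 3451, 3954 and 5163 of all genes. For diet with vehicle the count stayed at 0. Mup3 on SP reversed, to -0.57 with median-of-ratios scaling and -0.34 with TPM rescaled over genes that are not members. The cause was not tested. The mouse number as a replicate block gave 33 calls on SP and 8 on HP, beside 75.6% and 0.600% of all genes. The deviations of same-numbered mice correlated over 0.1 in 8 of 24 pairs of mice, so the numbers were not taken as pairing. Over single members, leaving out a mouse kept 660 values on the same side of the threshold and direction and took 76 below it. The other alternatives kept 365, took 46 below, brought 1 above and reversed 2. Without members under 10% unique windows, 20 of 24 mean shares of member or library TPM moved by more than 1 SD. Reads shared between near-identical copies limit single central values, and depth limits Mup4 and the scarce pseudogenes.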
